A study of Cavia porcellus with 24 samples.

Results

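DNA methylation was examined at 4 genes of receptor, cAMP, kinase and trafficking biology, TNFRSF19, RAPGEF3, MAP3K6 and SNX20. They were selected on the exposure contrast itself: in the study's list of differentially methylated CpG sites (DMCs) common to hippocampus and blood, all 4 carried several cytosines that were hypermethylated after prenatal exposure to synthetic glucocorticoids (sGC) in both tissues. For each gene, the window ran from 2000 bp before the first to 2000 bp after the last listed common DMC that the list gives to the gene, and every cytosine of both strands in the deposited tables was taken. The windows held 231 of the 3233055 cytosines listed in either tissue, namely 30 at TNFRSF19, 20 at RAPGEF3, 104 at MAP3K6 and 77 at SNX20. Of these, 228 were listed in the hippocampus, 222 in the blood and 219 in both. Since the difference between exposed and control animals chose these loci, it is described below and no test of it is used as evidence. Tests are read only for the difference between tissues and between the strands of a CpG.

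Reduced representation bisulfite sequencing (RRBS) reads DNA cut at MspI sites after unmethylated cytosines have been converted, so that the methylation level is the share of reads in which the cytosine was protected. Hippocampus and whole blood came from 12 female guinea pigs of the Hartley strain on postnatal day 14, with 1 animal from each litter. The mothers of 6 animals were injected with betamethasone, an sGC, at 1 mg/kg in 3 courses on gestational days 40/41, 50/51 and 60/61, and those of the remaining 6 were given saline (control). The deposited tables sum the reads of the 6 animals of a group, so there were 4 pools (hippocampus and blood, each of sGC and of control animals), each with 1 value per cytosine, and the spread between animals is not known. Both tissues are mixtures of cell types, and a change of methylation within cells cannot be told apart from a change in the mix of cells. Methylation tables alone do not allow the labelled tissues to be checked by marker genes. The median coverage of a listed cytosine over the whole tables was 93 (sGC) and 86 (control) reads in the hippocampus and 98 and 79 in blood, and at least 10 in each.

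The proteins act at different steps of signalling. TNFRSF19 (TROY) is a receptor of the tumour necrosis factor receptor superfamily that is found in the developing nervous system and hair follicle. RAPGEF3 (EPAC1) is activated directly by cAMP and loads the small GTPases RAP1 and RAP2 with GTP, which links hormone receptors to cell adhesion without protein kinase A. MAP3K6 (ASK2) is a stress-responsive kinase that works with its relative MAP3K5 (ASK1) upstream of the JNK and p38 kinases. SNX20 is a sorting nexin of blood cells that binds the tail of PSGL-1, the selectin ligand with which leukocytes attach to vessel walls. CpG methylation at promoters and other regulatory sequences often accompanies low activity of those sequences and differs between cell types.

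The listed cytosines lay in short spans on 4 scaffolds of the cavPor3 build. For TNFRSF19, the listed DMCs ran from position 26450792 to 26451015 of scaffold DS562861.1, a span of 224 bp, and were listed on the plus strand. For RAPGEF3, they ran from 52087819 to 52087948 of DS562864.1 (130 bp, plus strand). For MAP3K6, they ran from 8919224 to 8919479 of DS562880.1 (256 bp, plus strand), and for SNX20 from 8895440 to 8895607 of DS562860.1 (168 bp, minus strand). These spans, called core spans here, held 89 of the 231 cytosines, and positions below are distances in bp from the first listed DMC of the gene, increasing with the scaffold position. The list gives 32 common DMCs to the 4 genes on these strands, 7 for TNFRSF19, 6 for RAPGEF3, 12 for MAP3K6 and 7 for SNX20. It also holds 48 common DMCs with no gene name in the same windows, every one on the opposite strand, 9 at TNFRSF19, 7 at RAPGEF3, 15 at MAP3K6 and 17 at SNX20. Exons, introns and start sites were not assigned, since an annotation of this build was not used here.

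In all 4 core spans, hippocampal DNA was mostly unmethylated, blood DNA was mostly methylated, and the sGC pool lay above the control pool in both tissues. At TNFRSF19, the receptor, 35.2% of hippocampal reads were methylated in the core span in the sGC pool and 27.4% in the control pool (535 of 1522 and 341 of 1244 readings on the listed strand). In blood, the levels were 97.4% and 89.4%. At RAPGEF3, the cAMP-activated exchange factor, the hippocampal levels were 29.0% with sGC and 17.5% in controls, and the blood levels were 95.9% and 80.3%. At MAP3K6, the kinase, they were 31.6% and 21.5% in the hippocampus and 92.4% and 85.0% in blood. At SNX20, the sorting nexin, they were 24.5% and 13.6% in the hippocampus and 95.4% and 80.5% in blood.

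**Figure D1:**
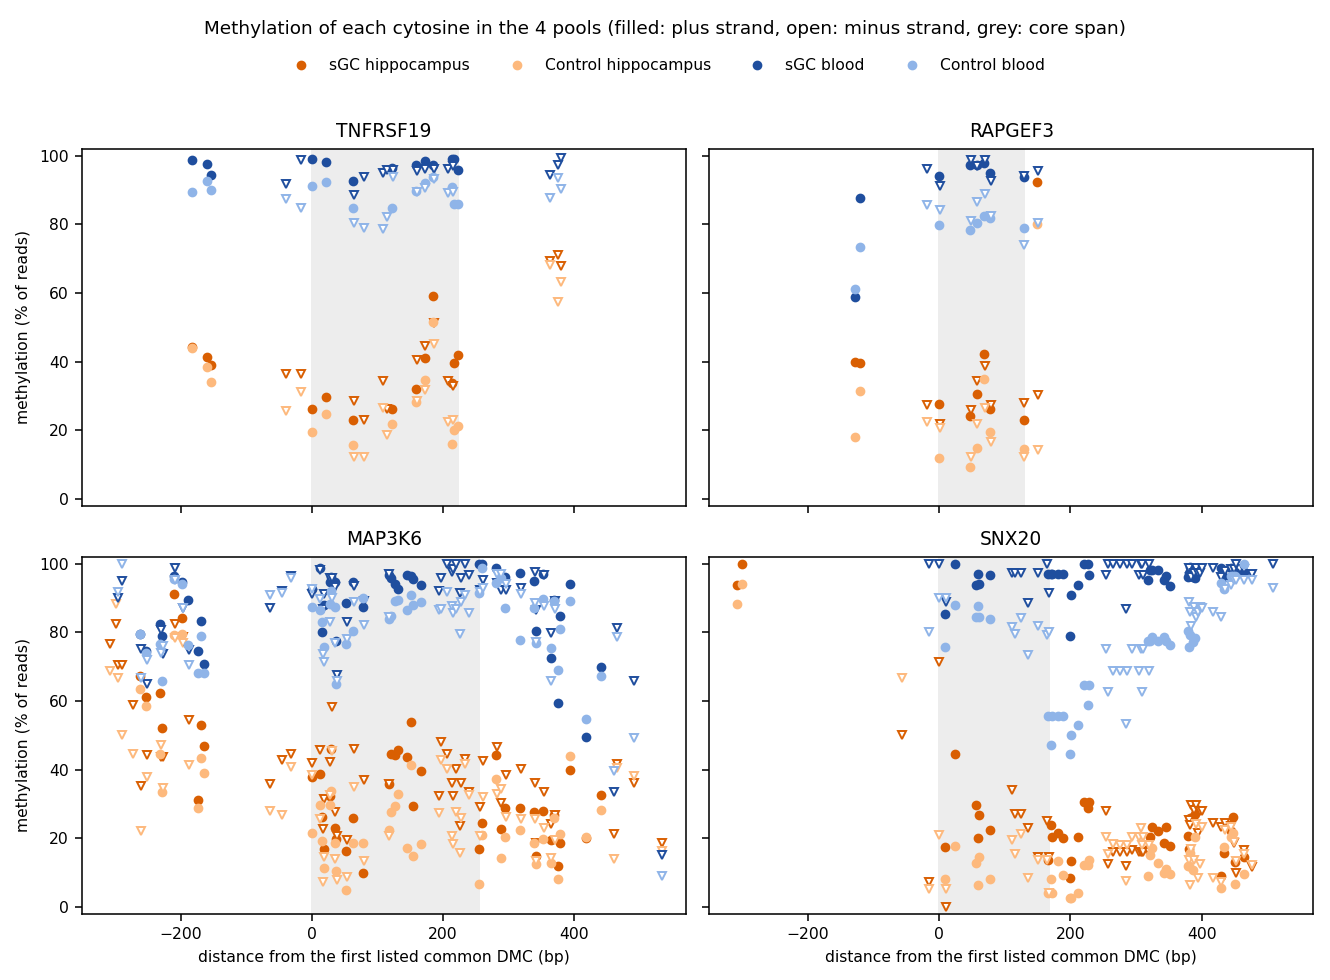
Methylation (% of reads, vertical axis) of each cytosine against its distance in bp from the first listed common DMC, for the 4 pools at each locus; 219 of the 231 cytosines lie within the plotted range. The blood pools (blue) sit above the hippocampal pools (orange) throughout the grey core spans, and at SNX20 the control blood falls to 44.4% near +200 bp while the sGC blood stays above 78%.

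The opposite strand gave levels close to these. There, the core span of TNFRSF19 had 35.5% in the sGC hippocampus against 24.6% in the control hippocampus, and 95.3% against 86.9% in blood. For RAPGEF3 the opposite strand had 30.3% against 19.4% in the hippocampus and 96.1% against 84.6% in blood, for MAP3K6 36.2% against 24.8% and 93.0% against 84.2%, and for SNX20 24.6% against 10.1% and 94.8% against 81.5%.

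As differences on the listed strand, sGC less control, TNFRSF19 gave 7.74 percentage points in the hippocampus (95% Newcombe interval -3.35 to 18.2) and 7.95 in blood (1.34 to 15.6). The intervals were computed at the median number of reads of the span, because cytosines on the same read are not independent, and they cover counting error only. RAPGEF3 gave 11.5 points in the hippocampus (2.81 to 19.7) and 15.6 in blood (8.81 to 22.9). MAP3K6 gave 10.1 points (-0.893 to 20.6) and 7.43 (-0.540 to 16.0), and SNX20 gave 10.9 (-3.05 to 26.0) and 14.9 (-0.522 to 29.3). Every interval overlapped that of the other tissue at the same locus.

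Across all cytosines of the windows, 202 of 228 (88.6%) were higher in the sGC pool in the hippocampus and 198 of 222 (89.2%) in blood. Over all cytosines tested, the same share was 56.0% in the hippocampus and 53.7% in blood, and nothing is read from the excess because this contrast selected the loci. In the cytosines listed in both tissues, 177 of 219 were higher with sGC in both, 6 were lower in both and 36 went in opposite directions, of which 18 were at MAP3K6, 16 at SNX20 and 1 each at TNFRSF19 and RAPGEF3. Of the 6 that were lower in both, 5 were at MAP3K6 and 1 at SNX20. The median difference was 8.27 points in the hippocampus and 8.98 in blood. By locus, the medians were 7.57 and 7.27 points at TNFRSF19, 12.6 and 13.7 at RAPGEF3, 8.25 and 5.03 at MAP3K6, and 7.67 and 16.4 at SNX20 (hippocampus and blood).

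**Figure D2:**
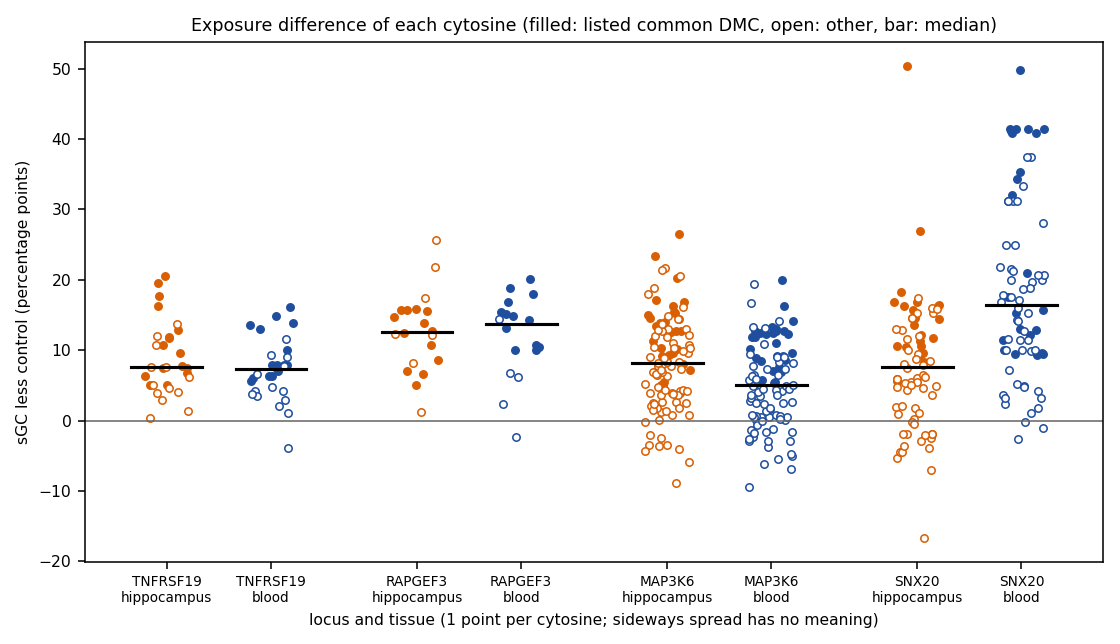
Difference in methylation of each cytosine (sGC less control, percentage points, vertical axis) by locus and tissue, with filled points for listed common DMCs, open points for other cytosines and bars for medians. Values above 25 points come mostly from SNX20 in blood, and the lowest value, -16.7 points, is an unlisted SNX20 cytosine in the hippocampus.

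The number of cytosines past a threshold is given as a description alone, because the same pools and contrast chose the loci, and nothing is read from it or from its direction. With Fisher's exact test on the pooled reads and Benjamini-Hochberg adjustment over the whole table (adjusted p below 0.05, at least 5 points), 2 of the 228 cytosines passed in the hippocampus and 22 of the 222 in blood, each higher with sGC. Over all cytosines, 0.0729% passed as higher and 0.0391% as lower in the hippocampus, and 0.192% and 0.125% in blood. Both hippocampal cytosines were at MAP3K6, 1 in the core span and 1 far outside it, at -1946 bp. Those in blood were 9 at RAPGEF3, 8 at SNX20, 3 at MAP3K6 and 2 at TNFRSF19. The count compares pools of reads, not animals, and comes from another test than the study's list. That list was made with the MethPipe software and batch as a covariate. It holds 32 members on the named strands and 48 on the opposite strands, as DMCs of both tissues. With the statistic divided by an inflation factor (the median chi-square over all cytosines against its expectation, 1.76 in the hippocampus and 1.73 in blood), 1 member passed, a RAPGEF3 cytosine in blood.

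Within the receptor locus, the differences at the listed DMCs of TNFRSF19 ranged from 5.09 to 20.5 points in the hippocampus on the named strand. The first of these DMCs, at 0 bp, was methylated in 43 of 164 (sGC) and 23 of 118 (control) reads in the hippocampus, and in 115 of 116 and 94 of 103 in blood. The last, at +223 bp, was methylated in 36 of 86, 16 of 75, 95 of 99 and 67 of 78 reads. It had the largest hippocampal difference of the locus, 20.5 points, beside 10.1 in blood. The 3 plus-strand cytosines from +214 to +223 bp all lay between 17.7 and 20.5 points in the hippocampus, but each was covered by 86 and 75 reads within a read length, so they are not separate measurements. The largest blood difference, 16.1 points, was at +109 bp on the minus strand, where the hippocampus differed by 7.78 points. The most deeply read cytosine, at +122 bp on the plus strand, was not listed. It had 26.2% (sGC) and 22.0% (control) in the hippocampus and 96.4% and 84.8% in blood, at 195, 168, 194 and 164 reads.

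At RAPGEF3 nearly every cytosine was higher with sGC. All 20 cytosines listed in the hippocampus were higher with sGC there, and 17 of 18 were in blood. The first listed DMC, at 0 bp, was methylated in 60 of 217 reads in the sGC hippocampus and 19 of 160 in the control hippocampus. In blood it was methylated in 172 of 183 and 122 of 153 reads. Its difference of 15.8 points was the largest among the listed DMCs of the named strand in the hippocampus. The last, at +129 bp, was methylated in 47 of 204, 24 of 166, 151 of 161 and 139 of 176 reads in the same order. In blood, the 6 DMCs of the named strand differed by 13.1 to 18.8 points, a range narrower than the counting interval of any of them. The cytosine at +47 bp gave 97.3% with sGC against 78.4% in control blood (178 of 183 and 120 of 153 reads), and 24.1% against 9.38% in the hippocampus. The smallest listed hippocampal difference, 5.07 points, was at -19 bp on the minus strand. The most deeply read cytosine, at +78 bp, had 26.2% against 19.5% in the hippocampus and 95.1% against 81.9% in blood.

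MAP3K6 held the most cytosines, and the hippocampal differences of its 12 listed DMCs on the named strand ranged from 5.48 to 26.4 points. The first listed DMC, at 0 bp, was methylated in 61 of 161, 27 of 125, 139 of 150 and 97 of 111 reads (sGC and control hippocampus, sGC and control blood). The last, at +255 bp, was methylated in 18 of 106, 6 of 91, 86 of 86 and 65 of 71. The largest hippocampal difference was at +145 bp, 43.7% with sGC against 17.2% in controls (45 of 103 and 20 of 116 reads), with 96.7% against 86.5% in blood. Its neighbours within the same read block, at +151 and +154 bp, differed by 12.7 and 14.6 points. A cytosine inside the core span went the other way: at +78 bp on the plus strand, 9.76% of 82 reads were methylated in the sGC hippocampus and 18.6% of 70 in controls, and blood had 87.3% and 90.0%. Its counterpart on the minus strand of the same CpG, at +79 bp, was a listed DMC with 36.8% against 13.5% in the hippocampus. Outside the core span, the blood differences varied from -9.40 to 19.5 points, with a median of 2.12. On the minus strand from -251 to -187 bp, 6 cytosines averaged 80.0% with sGC and 79.1% in control blood, beside 57.8% and 52.6% in the hippocampus. On the plus strand from +295 to +353 bp, 5 cytosines averaged 93.1% and 83.6% in blood, and on the minus strand from +491 to +533 bp, 2 averaged 40.4% and 29.1%.

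SNX20 had the lowest hippocampal level of the 4 core spans and the largest blood differences of single cytosines. On the plus strand from +166 to +229 bp, 11 neighbouring cytosines, all listed, averaged 95.03% (sGC) and 55.0% (control) in blood, at no more than 34 and 18 reads. Intervals for this and the following stretches were computed at the highest reads of any of their cytosines. The difference was 40.04 points (interval 16.3 to 62.1), and in the hippocampus the same cytosines averaged 21.0% and 7.84%, a difference of 13.2 points (1.3 to 25.8). The methylated reads of the control blood numbered 8 to 11 at each of the 11 cytosines, which lie within a read length of each other, so these are not separate measurements. Beyond the listed DMCs, 12 unlisted cytosines on the minus strand from +255 to +320 bp averaged 98.1% with sGC and 68.5% in controls in blood (at most 31 and 16 reads, 29.6 points, 8.4 to 53.9). In the hippocampus these 12 averaged 16.4% with sGC and 18.2% in controls, a difference of -1.77 points (-19.5 to 19.0). Further on, 11 unlisted plus-strand cytosines from +319 to +387 bp, with at most 107 and 93 reads in blood, averaged 96.6% and 77.8% (18.9 points, 9.9 to 28.6). From +429 to +464 bp, the pools were close, 97.4% against 96.0% in blood and 16.8% against 13.5% in the hippocampus.

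The SNX20 listed DMC at 0 bp, the first of the locus, had the largest hippocampal difference of any member, 50.4 points, on few reads: 10 of 14 with sGC, 4 of 19 in controls, and 18 of 18 and 9 of 10 in blood. The last of the named strand, at +167 bp, was methylated in 7 of 48 and 3 of 73 reads in the hippocampus and 32 of 35 and 36 of 45 in blood. The largest blood difference of any member, 49.8 points, was at +170 bp on the plus strand, 31 of 32 reads against 8 of 17. The most deeply read cytosine of the locus, at +319 bp on the plus strand, was not listed and had 16.8% and 8.96% in the hippocampus and 95.3% and 77.4% in blood, at 113, 134, 107 and 93 reads.

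To lessen the repeated counting of shared reads, neighbours on 1 strand with nearly equal coverage in all 4 pools within a read length of 75 bp were joined into read blocks. Neighbouring blocks can still share reads, so the blocks are not separate measurements either. On the plus strand of SNX20, for example, 1 block ended at +387 bp and the next lay at +390 bp. The 219 shared cytosines formed 57 blocks, 10 at TNFRSF19, 8 at RAPGEF3, 27 at MAP3K6 and 12 at SNX20. The sGC pool was higher in 52 blocks in the hippocampus, in 48 in blood and in 46 in both. The direction is the one the loci were chosen for. In 8 blocks the tissues went in opposite directions, 4 of them at MAP3K6, 2 at SNX20 and 1 each at TNFRSF19 and RAPGEF3. The block medians were 7.86 points in the hippocampus and 6.50 in blood.

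Listed and unlisted cytosines met closely at the study's threshold of 5 points. The listed members nearest to it were the MAP3K6 cytosine at +197 bp on the minus strand (5.03 points in the hippocampus), the RAPGEF3 cytosine at -19 bp (5.07) and the TNFRSF19 cytosine at +21 bp (5.09). Just outside it were MAP3K6 cytosines at +127 bp (4.98 in blood, 14.8 in the hippocampus) and +167 bp (4.96 and 21.3), and the SNX20 cytosine at +381 bp (4.93 in the hippocampus, 21.3 in blood). A further condition of the list was the study's adjusted p, and 35 unlisted members differed by at least 5 points in the same direction in both tissues.

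The contrast between tissues was not used to choose the loci, although the same pools enter it. It was tested in each condition by Fisher's exact test on the pooled reads, adjusted by Benjamini-Hochberg over all 2564116 shared cytosines, with an adjusted p below 0.05 and at least 10 points. The test compares pools of reads, not animals, and cannot pair the tissues of an animal. Members that share reads are not separate measurements. In control animals, blood was more methylated at 201 of the 219 shared cytosines (91.8%), against 15.3% of all cytosines tested. In sGC animals it was more methylated at 198 (90.4%), against 15.6% of all. No member was called more methylated in the hippocampus (208 and 205 members had an unadjusted p below 0.05 in either direction), against 4.43% and 5.01% of all cytosines. The statistic was also divided by its inflation factor, 3.30 in controls and 3.39 with sGC. In controls, the calls then fell from 73 to 51 at SNX20, from 86 to 71 at MAP3K6 and from 27 to 25 at TNFRSF19, and stayed at 15 at RAPGEF3. With sGC, they fell from 84 to 73 at MAP3K6 and from 72 to 70 at SNX20, and stayed at 27 at TNFRSF19 and 15 at RAPGEF3.

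In the core spans, all 88 shared cytosines were called in controls and 87 in sGC animals. The exception was the SNX20 cytosine at 0 bp, with 14 and 18 reads and a difference of 28.6 points (adjusted p = 0.107, exact). On the listed strand, blood exceeded hippocampus in controls by 62.0 points at TNFRSF19, 62.8 at RAPGEF3, 63.5 at MAP3K6 and 66.9 at SNX20. With sGC these gaps were 62.2, 66.9, 60.8 and 70.9 points. The 95% Newcombe intervals, at the median reads, ran from 50.6 to 70.6 points at TNFRSF19 and from 49.9 to 77.8 at SNX20 in controls, and from 50.7 to 68.9 at MAP3K6 and 52.3 to 81.4 at SNX20 with sGC. They overlapped between all loci, so the order of the loci is within counting error. The change of the gap with exposure is the difference of the contrasts that chose the loci and was not tested.

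The gap was smaller at outer cytosines of MAP3K6, TNFRSF19 and RAPGEF3, but the place of its edges cannot be compared between loci. No cytosine was listed between +380 and +1801 bp at TNFRSF19 or between +150 and +1933 bp at RAPGEF3. At MAP3K6 the 42 core cytosines differed between tissues by 43.9 to 85.0 points in controls. On the plus strand from -262 to -210 bp, the control hippocampus averaged 55.7% and the control blood 78.3%. Far before the core span both were mostly methylated: 3 plus-strand cytosines from -1946 to -1896 bp averaged 80.1% and 92.0%, and 3 on the minus strand from -1904 to -1864 bp averaged 91.9% and 96.1%. The plus-strand cytosine at -1946 bp was lower, with 59.4% in the control hippocampus and 82.0% in the control blood. Its gap of 22.7 points was called. On the far side, the control blood varied from cytosine to cytosine. It had 54.8% at +418 bp, 67.3% at +440 bp, 39.5% at +461 bp, 78.6% at +465 bp, 49.1% at +491 bp and, at the last position, +533 bp, 9.09% (10 of 110 reads) beside 16.2% in the hippocampus (24 of 148 reads). At +533 bp the sGC pools had 15.0% in blood and 18.5% in the hippocampus. The members that were not called between tissues in MAP3K6, 13 in controls and 15 with sGC, all lay outside the core span.

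At TNFRSF19 the gap was smaller where the hippocampus was more methylated. Control blood was at 78.8% or more over the whole window, so the gap there largely restates the hippocampal level. On the minus strand from +363 to +380 bp, the control hippocampus rose to 62.9% and the control blood was at 90.5%. At +1970 bp the control pools were 89.8% and 92.6%, and this cytosine and that at +1801 bp (76.2% of 21 reads against 100% of 11) were the 2 members of the locus that were not called in either condition. At RAPGEF3, the 2 plus-strand cytosines at +1933 and +1949 bp averaged 72.7% in the control hippocampus, 90.0% in the control blood and 94.2% in both sGC pools, at 20 to 33 reads. At SNX20 no edge was reached among the shared cytosines. All 73 shared cytosines were called in controls, and at the last of them, +476 bp, the control hippocampus had 12.2% and the control blood 95.3%. The 2 cytosines at -308 and -301 bp were listed in the hippocampus alone and were methylated in 15 of 17 and 16 of 17 control reads.

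**Figure D3:**
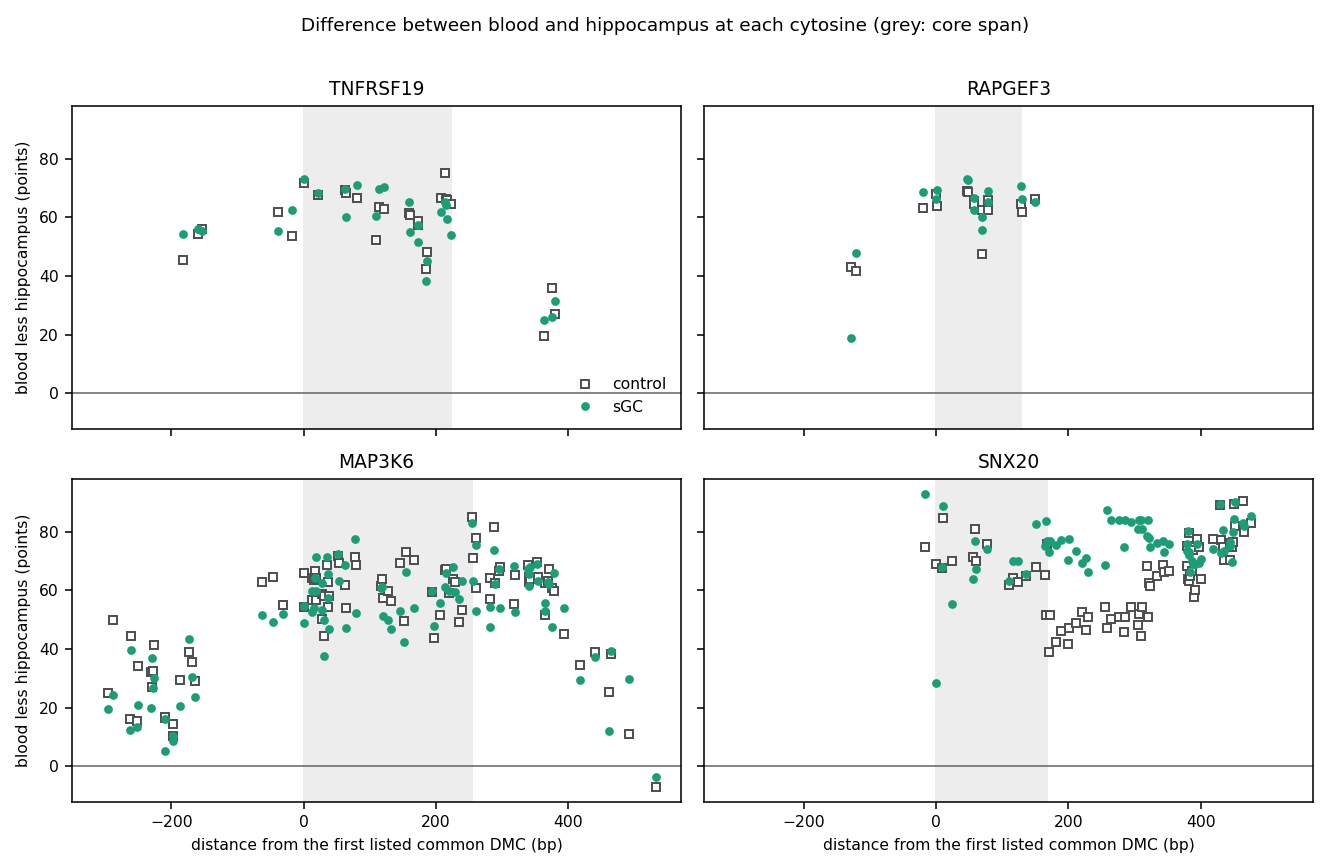
Blood less hippocampus (percentage points, vertical axis) of each shared cytosine against distance in bp from the first listed common DMC, for the control pools (open squares) and the sGC pools (filled circles). Core spans are shaded; the gap falls to -7.13 points at +533 bp of MAP3K6 in controls and stays above 39 points in controls over the whole SNX20 cluster.

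The lower control blood methylation of SNX20 narrowed the gap locally. In the block from +166 to +229 bp, blood exceeded hippocampus by 47.2 points in controls and by 74.0 with sGC, and in the block from +255 to +320 bp by 50.3 and 81.6 points. The control blood had at most 18 and 16 reads per cytosine in these blocks, against at most 93 in the block from +319 to +387 bp. The gaps in that block were 65.5 and 75.6 points. Whether this lower coverage has a part in the larger differences was not tested.

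The order of cytosines within a core span was kept between the exposure groups in the hippocampus more than in blood. Spearman's rho between the sGC and control hippocampus was 0.78 over 19 cytosines of TNFRSF19, 0.56 over 11 of RAPGEF3, 0.82 over 42 of MAP3K6 and 0.85 over 16 of SNX20. In blood it was 0.56 (20 cytosines), 0.064, 0.50 and 0.21. The points share reads and the blood values span a narrow range near full methylation, so these are descriptions with no test. At TNFRSF19, for example, a hippocampal peak at +185 bp (59.1% with sGC and 51.5% in controls) stood above its neighbours in both groups.

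Both strands were measured at 58 CpGs of the windows. CpG methylation is normally copied to both strands after replication, so that the strands of a CpG usually carry like levels. By Fisher's exact test with Benjamini-Hochberg adjustment over all CpGs read on both strands (at least 10 points), none of the members differed between strands in the control blood or the sGC blood, against 1.12% of all CpGs in either pool, and 1 CpG in each had an unadjusted p below 0.05. In the control hippocampus 1 member was called, against 1.42% of all, and in the sGC hippocampus 3 were called, against 1.66%. At an unadjusted p below 0.05, 8 of the 58 CpGs passed in the hippocampus of controls and 9 in that of sGC animals. The called CpGs, named here after their values were seen, were the RAPGEF3 CpG at +149 bp in both hippocampal pools and the MAP3K6 CpGs at +63 and +78 bp in the sGC hippocampus. At the RAPGEF3 CpG, the plus strand was methylated in 12 of 13 and 8 of 10 reads (sGC and control), and the minus strand in 33 of 109 and 15 of 104. The plus strand there had at most 13 reads where its neighbour at +129 bp had 204, and it was not listed in blood. At the MAP3K6 CpGs in the sGC hippocampus, the plus strand was lower than the minus strand, 25.9% against 46.0% at +63 bp and 9.76% against 36.8% at +78 bp.

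**Figure D4:**
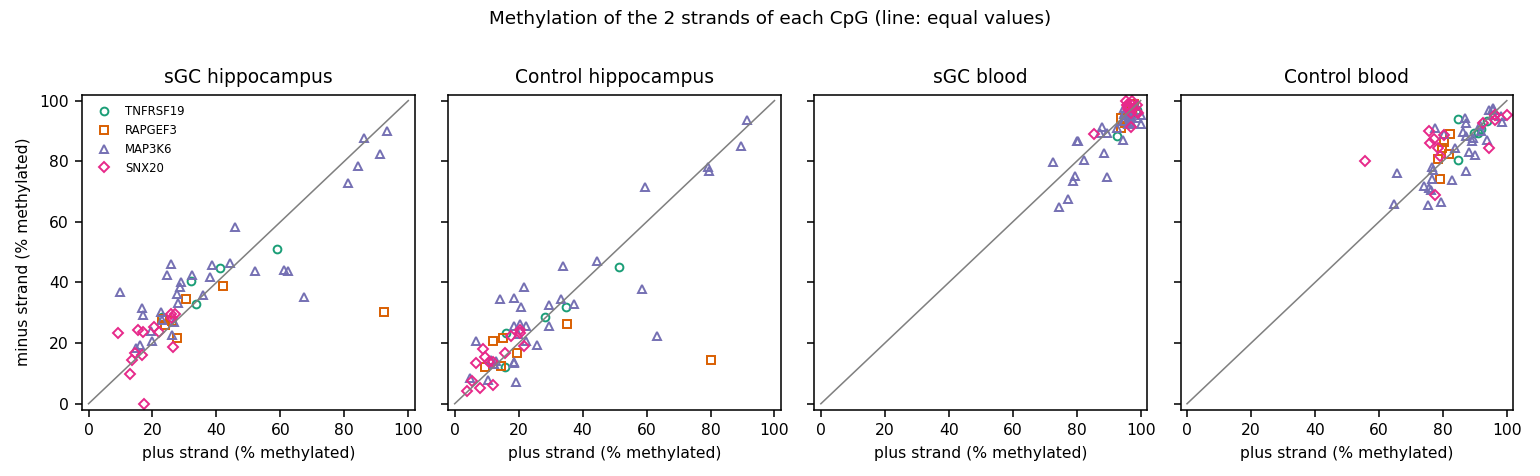
Methylation of the minus strand (vertical axis, %) against the plus strand (horizontal axis, %) of each CpG read on both strands, 1 panel per pool, with 1 symbol per locus and the line of equal values. In blood the points lie near the upper end of the line, and in the hippocampus the RAPGEF3 CpG at +149 bp stands apart with 92.3% and 80.0% on its plus strand.

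The exposure difference had the same sign on both strands at most of these CpGs. In the hippocampus it was above 0 on both strands at 48 of 58 CpGs, below 0 on both at 0, and of opposite sign at 10. In blood the numbers were 43, 1 and 14. At the 7 RAPGEF3 CpGs read on both strands in the hippocampus and the 6 in blood, and at the 5 and 6 of TNFRSF19, every CpG was higher on both strands. The 10 hippocampal CpGs with opposite signs were 5 of the 32 at MAP3K6 and 5 of the 14 at SNX20. This contrast chose the loci, and the study's list holds common DMCs on both strands of each window. Nothing is therefore read from these counts, and the same share over all CpGs was not computed.

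Among the 34 genes with at least 3 common DMCs in the study's list, other genes had nearly the same levels in the 4 pools. Likeness was measured as the Euclidean distance between the methylation percentages of the 4 pools, summed over the listed DMCs of each gene. Closest to TNFRSF19 were MDGA1 (6.18 points), FUT10 (7.11) and FAM222A (7.58). Closest to RAPGEF3 were IRF2BPL (3.69), SNX20 (4.00) and MAP3K6 (4.44). MAP3K6 was closest to FAM222A (2.42), PHLDB1 (2.47) and MDGA1 (4.17), and SNX20 to IRF2BPL (2.67), RAPGEF3 (4.00) and NFIA (6.32). Ranked by the gap between control blood and control hippocampus, the 4 genes stood at 9 (TNFRSF19), 10 (SNX20), 13 (MAP3K6) and 16 (RAPGEF3) of 34, with gaps of 66.4, 66.0, 63.8 and 62.8 points. The median over the 34 genes was 62.6 points and the range was -71.9 to 80.1. All 4 genes lay a little above that median, which was not tested.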

How the data were processed

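RRBS was made from hippocampus and whole blood of 12 animals (24 samples, 4 groups of 6). The authors trimmed reads of 75 bp with Trim Galore (quality 30) and NuGEN's script, aligned them to cavPor3 with Bismark 0.16.0, sorted them with SAMtools 1.7 (versions per the submitters' processing notes) and tested CpGs with MethPipe, with batch as a covariate. The authors deposited, per tissue, counts of methylated and total reads of each cytosine summed over the 6 animals, unnormalized, and the p-value of their own comparison adjusted for false discovery (FDR). This FDR was not used, and the planned counts of DMCs by it were not made. Positions are given as deposited. Positions, strands and gene names of common DMCs came from the study's list; no other value did. Batches cannot be examined in pooled reads.

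Members, windows and lists were chosen with earlier results of these data known, and the read blocks after seeing the coverage. Percentages were methylated over total reads. Fisher's exact test (two-sided, Benjamini-Hochberg adjusted over the whole table) was written in Python 3.11.15 with numba 0.67.0 and scipy 1.17.1, on tables read by pandas 2.3.3 (numpy 2.4.6), and was tested on simulated data; figures used matplotlib 3.10.9. Read blocks joined cytosines of 1 strand within 75 bp whose coverage changed by at most 10% or 2 reads. Their intervals used the highest coverage in the block. The text names the first and last listed DMC of each gene, the listed DMCs with the largest and smallest differences, the deepest cytosine, those at the threshold and the 3 most alike genes; other cytosines were named after their values were seen. Alternatives changed the minimum coverage, weighting, strands, span, test and thresholds. The paper does not describe how PCR duplicates were handled. Intervals cover counting error of the summed reads only, and not the spread between animals.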

Additional observations from a re-analysis of the deposited data

How the results depend on the processing

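The exposure difference by locus and tissue had 54 alternative values. They used coverage of at least 20 or 50 reads, equal weight per cytosine, both strands, whole windows, cytosines listed in both tissues, and read blocks. The read blocks were chosen after seeing the data. All 54 values stayed within the counting interval, from 5.42 to 16.2 points. They kept the direction, which is the one the loci were chosen for. The coverage minima and the limit to cytosines listed in both tissues removed no cytosine at TNFRSF19, RAPGEF3 and MAP3K6, so those values only repeat the main one. The limit to cytosines listed in both tissues also removed none at SNX20. SNX20 in the hippocampus fell from 10.9 to 6.58 points over the whole window, and MAP3K6 from 10.1 to 6.68 with read blocks weighted equally; no SNX20 cytosine of the core span had 50 reads in every pool. For the exposure counts, which the choice of loci fixes in direction, dividing the chi-square by its inflation factor left 0 of 2 calls at TNFRSF19 in blood, 1 of 9 at RAPGEF3 in blood, 0 of 2 and 0 of 3 at MAP3K6 in hippocampus and blood, and 0 of 8 at SNX20 in blood. The tissue difference of MAP3K6 fell to 51.9 points in controls and 49.1 with sGC over the whole window, which takes in the edges. At SNX20, 47 tissue calls in place of 73 were made in controls with at least 20 reads in both tissues, since fewer cytosines were tested. With at least 20 reads on both strands, 0 strand calls were left at RAPGEF3 in the sGC hippocampus and 0 in the control hippocampus, and with a minimum of 25 points 1 was left at MAP3K6 in the sGC hippocampus. TNFRSF19 had 5 clusters at gaps of 100 bp in place of 2 at 200, and SNX20 1 at 500 in place of 2. Counts of DMCs by the deposited FDR and their alternatives were not run. No paired analysis was possible because the columns sum the reads of the 6 animals of a group and carry no replicate, and for the same reason no replicate could be left out.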
